A study of Homo sapiens with 6 samples.

Results

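Smooth muscle contractile genes were examined in the transcriptome of MCF10A cells grown with and without growth factors. The 10 genes were taken from a list of contractile proteins, ACTA2, ACTG2, MYL9, TPM1, TPM2, CALD1, CNN1, TAGLN, LMOD1 and SYNPO2, and all 10 were found among the 19198 genes with values. MCF10A is an established, non-tumorigenic human mammary epithelial line derived from fibrocystic breast tissue, and a single line cannot stand for mammary epithelium in general. Control cells (growth factor+, n = 3) were kept in medium with 5% horse serum, insulin at 10 µg/ml, EGF at 20 ng/ml, cholera toxin at 100 ng/ml and hydrocortisone at 0.5 µg/ml. Depleted cells (growth factor-, n = 3) were kept in the same basal medium and 5% horse serum without these 4 additions, so serum was shared by both groups. The series' design text speaks of 2 replicates where the labels list 3 samples a group, and the labels were followed, so each n of 3 rests on them. RNA-Seq of total RNA freed of ribosomal RNA compared the 2 groups in order to describe the shift from a cobblestone to a spindle-like shape that follows withdrawal. The day of RNA sampling is not given in the sources used here. The labels do not say whether the replicates came from separate cultures, so p-values measure only the spread between these samples, which may be technical.

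Smooth muscle shortens when myosin pulls on actin filaments. The trigger is calcium, which through calmodulin activates myosin light chain kinase. The kinase then phosphorylates the regulatory light chain of myosin. Tropomyosin, caldesmon and calponin lie along the thin filament and tune its contact with myosin, whereas transgelin, leiomodin and synaptopodin 2 bundle, nucleate or anchor actin filaments. Many of these genes are known targets of serum response factor (SRF), which binds a short DNA element called the CArG box and works with the actin-sensing cofactors MRTFA and MRTFB. In the breast the same set of genes marks the contractile myoepithelial cells around the ducts, and several members also rise in myofibroblasts and in epithelial cells undergoing epithelial-mesenchymal transition (EMT).

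The depth was between 7472418 and 28672630 reads on genes per sample, and depleted replicate 3 was the shallowest. Depleted replicate 1 stood apart from the other two depleted samples in some epithelial genes. Of 11 mammary epithelial markers it was the lowest depleted sample for 7 and the highest for 3 (KRT14, ITGA6 and ITGB4). CDH1, the gene of E-cadherin, was at 609.6 normalized counts there and at 13234 and 13118 in depleted replicates 2 and 3. The labels call the cells luminal ductal cells, and both the luminal keratin KRT8 (2442 to 8635 normalized counts in control samples) and the basal keratin KRT5 (12739 to 38503) were detected. Normalized counts are reads divided by a size factor for the depth of each sample, and are not divided by gene length. In bulk RNA, more cells of a type and more RNA per cell cannot be told apart.

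All 10 genes had every depleted sample above every control sample, whereas 13.5% of the 16988 genes tested did so. Every gene with values had at least 3 reads in at least 3 samples. ACTG2, LMOD1 and CNN1, with at most 1 read in any control sample, could therefore be listed only with every depleted sample above the controls. For these members the lack of overlap was fixed in advance. With limma on log2(normalized count + 1) and a threshold of an adjusted p under 0.05 and at least a 2-fold change, 8 of the 10 were up-regulated and 0 were down-regulated, against 4.36% and 1.97% of all genes tested. None was lower at an unadjusted p under 0.05, nor by edgeR or DESeq2. The 10 genes were chosen with earlier results of these data known, so these counts only describe them. CALD1 and CNN1 did not pass. The median log2 fold change of the 10 genes was 5.05, beside -0.03 for all genes tested, and 5.42 when ACTG2, LMOD1 and CNN1, which had few or no control reads, were set to the bounds given with each. The 5.42 is not a lower bound, because these bounds rest on pooled reads or group means and the fit on means of log values. ACTG2, LMOD1 and CNN1 passed the minimum mean of 10 normalized counts through the depleted samples alone. On the recovered reads, edgeR called 9 members higher (4.02% of all genes) and DESeq2 called 10 (7.58%). Without depleted replicate 1 limma called 10 members, and without depleted replicate 2 or 3 it called 6 each time. Over all genes tested, limma called 663, 313 and 341 higher without depleted replicate 1, 2 or 3, against 741 with all samples.

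**Figure D1:**
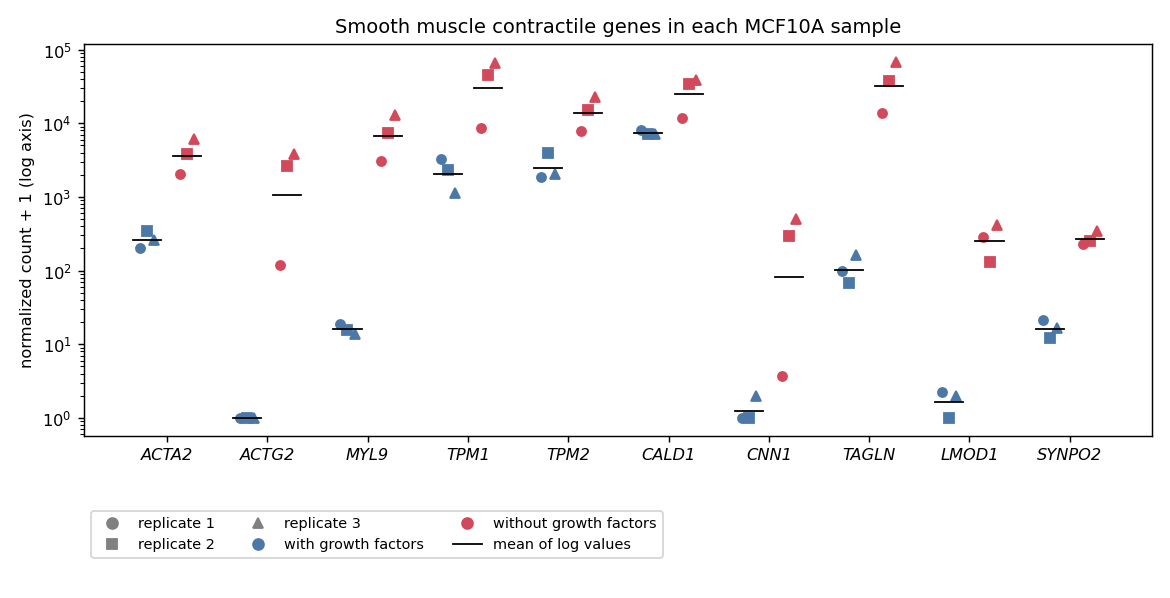
Normalized count + 1 (log axis) of the 10 smooth muscle contractile genes in each of the 3 samples with growth factors (blue) and the 3 without (red). Symbols mark the replicate number and the short black line is the mean of the log values. No red symbol lies below a blue one of the same gene, and the 2 groups are nearest for CALD1 and, through depleted replicate 1, CNN1.

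ACTA2 (ENSG00000107796.11, hg38 chromosome 10, 88935074 to 88991339, minus strand) encodes smooth muscle alpha-actin, the actin of vascular smooth muscle, myofibroblasts and myoepithelium. It was at 204, 339 and 263 normalized counts in control replicates 1, 2 and 3 and at 2022, 3842 and 6082 in depleted replicates 1, 2 and 3. Every depleted sample was far above the highest control sample. ACTA2 rose by a log2 fold change of 3.78 ± 0.42 (SE; limma adjusted p = 0.00209). On the opposite strand ACTA2-AS1 overlaps 23.3% of the 100-base windows of the ACTA2 transcript, and it was at 1.25, 4.10 and 8.85 normalized counts in control and at 70.5, 40.7 and 8.94 in depleted samples, well under ACTA2 in each.

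ACTG2 (ENSG00000163017.12, chromosome 2, 73892314 to 73919865, plus strand) encodes smooth muscle gamma-actin, the actin of visceral smooth muscle. No read was counted in any of the 3 control samples, and the depleted samples held 118, 2629 and 3877 normalized counts. With no control read, the gene could be listed only with at least 3 reads in every depleted sample. Its detection in all of them was thus a condition of listing and not a result. Depleted replicate 1 lay far below the rest. Against a floor of 3 reads per control library, a mean of 2.82 normalized counts, the depleted mean was at least 782-fold higher. That mean came from 5872 reads in all, and depleted replicate 1 was at 5.35% of it, so the bound is not one for each sample. The limma adjusted p was 0.00257, and the fitted log2 fold change of 10.06 ± 1.19 (SE) depends on the pseudocount of 1 and falls to 6.78 with a pseudocount of 10.

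The promoters of both actins in the RefSeq table (GRCh38.p14, 250 bases before to 50 after the start) are shown because CArG-like letters stand in both windows. Capitals mark the box, which is CC and GG around a run of A and T letters. This pattern, though not each printed box, reads alike on both strands, and all sequences run 5′ to 3′ on the strand of the gene.
ACTG2, chr2:73892883-73892959, plus strand: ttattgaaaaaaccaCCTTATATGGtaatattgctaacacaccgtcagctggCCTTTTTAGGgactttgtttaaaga
ACTA2, chr10:88952820-88952909, minus strand: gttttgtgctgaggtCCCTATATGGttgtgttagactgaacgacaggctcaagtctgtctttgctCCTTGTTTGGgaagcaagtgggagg
The ACTG2 stretch holds 2 full boxes, which begin 110 and 73 bases before the start. In the second of the 2 ACTA2 promoters 2 boxes, at 121 and 71 bases, each miss the pattern by 1 letter. Among the 35116 RefSeq promoters, 1.29% held a full box, as did 1.17% of those of genes tested, 2.83% of the 884 promoters of genes called higher without growth factors, and 1 of the 15 promoters of the 8 members that matched the table. A box with 1 letter off was in 6.94% of all promoters, 6.00% of those of genes called higher, and 3 of the 15. Besides ACTA2 these belong to SYNPO2 (110 bases before the start) and CALD1 (26 bases). MYL9 and TAGLN had no entry. A match is a description of these letters and not a binding site.

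MYL9 (ENSG00000101335.8, chromosome 20, 36541497 to 36551447, plus strand) encodes the regulatory myosin light chain of smooth muscle, the substrate of myosin light chain kinase. It was at 17.5, 14.6 and 12.8 normalized counts in control samples and at 3089, 7261 and 12944 in depleted samples. The control samples lay close together, and the depleted samples spread over 4.19-fold. MYL9 rose by 8.70 ± 0.50 on the log2 scale (SE; limma adjusted p = 3.24e-04).

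Of the thin-filament genes, TPM1 (ENSG00000140416.18, chromosome 15, 63042620 to 63071915, plus strand) encodes tropomyosin alpha-1. It was at 3320, 2348 and 1127 normalized counts with growth factors and at 8718, 45379 and 65918 without. Depleted replicate 1 was nearest to the control samples and the other two lay much further above them. TPM1 rose by 3.84 ± 0.75 (SE; limma adjusted p = 0.0203), but missed the threshold without control replicate 2 (0.0587), depleted replicate 2 (0.0865) or depleted replicate 3 (0.0698).

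TPM2 (ENSG00000198467.12, chromosome 9, 35681992 to 35690056, minus strand), the beta-tropomyosin gene, was at 1839, 3931 and 2018 normalized counts in control samples and at 7753, 15085 and 22988 in depleted samples. The groups did not overlap, and the lowest depleted sample was nearest to control replicate 2. Its log2 fold change was 2.51 ± 0.48 (SE; limma adjusted p = 0.0188), and it missed the threshold without control replicate 1 (0.0787), depleted replicate 2 (0.0813) or depleted replicate 3 (0.0747). Counts per gene cannot separate the muscle and non-muscle isoforms that alternative splicing makes from TPM1, TPM2 and CALD1.

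CALD1 (ENSG00000122786.18, chromosome 7, 134744252 to 134970729, plus strand) encodes caldesmon, which binds actin, tropomyosin and calmodulin. It was already abundant with growth factors, at 8027, 7132 and 7142 normalized counts, and stood at 11661, 33902 and 38490 without. The control samples were close together, and depleted replicate 1 lay nearer to them than to the other depleted samples. The log2 difference of 1.74 ± 0.50 (SE) did not pass with limma (adjusted p = 0.0806) or edgeR (adjusted p = 0.0612) but did with DESeq2 (adjusted p = 8.50e-04), and with limma without depleted replicate 1 (2.28, adjusted p = 0.0169).

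CNN1 (ENSG00000130176.6, chromosome 19, 11538767 to 11550323, plus strand) encodes calponin 1, a marker of differentiated smooth muscle that inhibits myosin ATPase. The control samples held 0, 0 and 0.98 normalized counts, and the depleted samples 2.75, 294 and 501. Depleted replicate 1, with 3 reads, was thus at the level of the floor, while replicates 2 and 3 held 449 and 224 reads. Over the groups this was 1 read against 676, a pooled ratio of 777 with an exact 95% counting interval of 139 to 30722, which covers counting error only and not the spread between samples. The limma adjusted p was 0.0728 (log2 difference 6.03 ± 1.66, SE). The gene passed with edgeR (adjusted p = 0.0297) and DESeq2 (adjusted p = 3.64e-04), and with limma without depleted replicate 1 (adjusted p = 0.00228).

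TAGLN (ENSG00000149591.15, chromosome 11, 117199370 to 117207464, plus strand) encodes transgelin, or SM22 alpha, an actin-crosslinking protein of smooth muscle and a target of TGFβ signalling. It was at 97.8, 66.8 and 160 normalized counts with growth factors and at 13598, 36923 and 68259 without. The lowest depleted sample was far above the highest control. TAGLN rose by 8.31 ± 0.58 on the log2 scale (SE; limma adjusted p = 4.17e-04). In the Gencode v44 annotation 65.1% of the 100-base windows of its transcript also lie in the same-strand transcript ENSG00000280143, which was at 2.51, 8.79 and 20.7 normalized counts in control and at 309, 995 and 1583 in depleted samples. How reads lying in both were counted is not stated, and the effect on TAGLN was not tested. A further overlap, of 52.8%, is with opposite-strand genes that include PCSK7, which was at 1243 to 1553 normalized counts in control and 749 to 960 in depleted samples. The strand setting of the counting is not given in the sources used here. The other 9 members shared no 100-base window with another gene on the same strand, the actins and tropomyosins included, although reads with mismatches were not examined.

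LMOD1 (ENSG00000163431.12, chromosome 1, 201896456 to 201946548, minus strand) encodes leiomodin 1, which nucleates actin filaments in smooth muscle. The control samples held 1.25, 0 and 0.98 normalized counts and the depleted samples 285, 130 and 420. It was the only member whose lowest depleted sample was replicate 2. The reads were 2 against 697, a pooled ratio of 400 with an exact 95% counting interval of 110 to 3313 for counting error only. LMOD1 rose (limma adjusted p = 8.67e-04; fitted log2 fold change 7.25 ± 0.66, SE).

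SYNPO2 (ENSG00000172403.9, chromosome 4, 118850688 to 119061247, plus strand) encodes synaptopodin 2, or myopodin, which binds actin and alpha-actinin at dense bodies and Z-discs. It was at 20.1, 11.1 and 15.7 normalized counts in control samples and at 225, 250 and 349 in depleted samples. The depleted samples were within 1.55-fold of each other, the tightest of the 10 members. SYNPO2 rose by 4.06 ± 0.44 on the log2 scale (SE; limma adjusted p = 0.00187).

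The depleted samples differed among themselves in much the same way for most members. In 9 of the 10 genes depleted replicate 1 was the lowest and depleted replicate 3 the highest. That order was seen in 18.0% of all genes tested and in 22.4% of the 741 genes called higher. Relative to the mean of the 3 depleted samples, depleted replicate 1 held 1.03% for CNN1, 5.35% for ACTG2, 21.8% for TPM1 and 34.3% for TAGLN, but 82.0% for SYNPO2 and 102% for LMOD1. Depleted replicate 3, the highest for all 10 members, held between 127% (SYNPO2) and 188% (CNN1). Depleted replicate 1 is also the sample with little CDH1, and depleted replicate 3 the one with the fewest reads, and the part of either in this order was not tested.

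**Figure D2:**
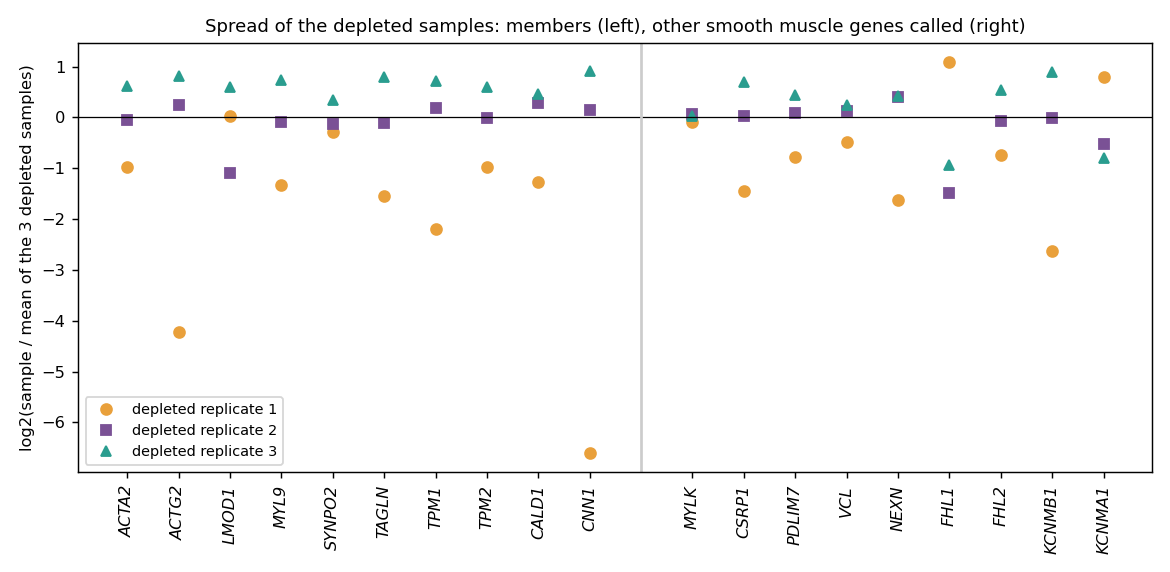
Each depleted sample relative to the mean of the 3 depleted samples, on the log2 scale, for the 10 members (left) and the 9 other smooth muscle genes called higher without growth factors (right). Replicate 1 (circles) is lowest for every member but LMOD1 and replicate 3 (triangles) is highest for all 10, whereas FHL1 and KCNMA1 have replicate 1 on top and MYLK has its 3 samples between 93.7% and 105% of their mean.

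The members were next set beside cytoplasmic and striated muscle relatives of the same families, some of them broadly expressed (ACTB, ACTG1) and some restricted to few tissues (ACTA1, ACTC1). Of 21 relatives listed, 17 had values and 16 were tested. Of these, 3 rose and 0 fell, 16 had a positive log2 fold change, and their median was 1.28. Of all 16988 genes tested, 4.36% rose, 1.97% fell and 8179 had a positive log2 fold change, with a median of -0.03. No relative was lower at an unadjusted p under 0.05, nor by edgeR or DESeq2. Of the actins, ACTB (the beta-actin of every cell) was at 61978, 100366 and 22171 normalized counts in control samples and at 76814, 117779 and 181717 in depleted samples, so the groups overlapped (log2 difference 1.19, limma adjusted p = 0.426), and ACTG1 did not pass either (1.33, limma adjusted p = 0.274). The 3 relatives that rose were the broadly expressed calponins CNN2 (2.01 ± 0.35, SE; limma adjusted p = 0.0128) and CNN3 (2.06 ± 0.40; limma adjusted p = 0.0200), and SYNPO, synaptopodin (4.09 ± 0.57; limma adjusted p = 0.00502). Only 1 relative was called without depleted replicate 2, and likewise without depleted replicate 3. TPM3, TPM4, TAGLN2, MYL12A and TMOD3 had log2 differences of 0.37, 1.71, 0.48, 1.24 and 0.50 that did not pass with limma or edgeR. DESeq2 called TPM4 (adjusted p = 0.00419), whose groups did not overlap. The lists were chosen with results of these data known, and the counts describe them.

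**Figure D3:**
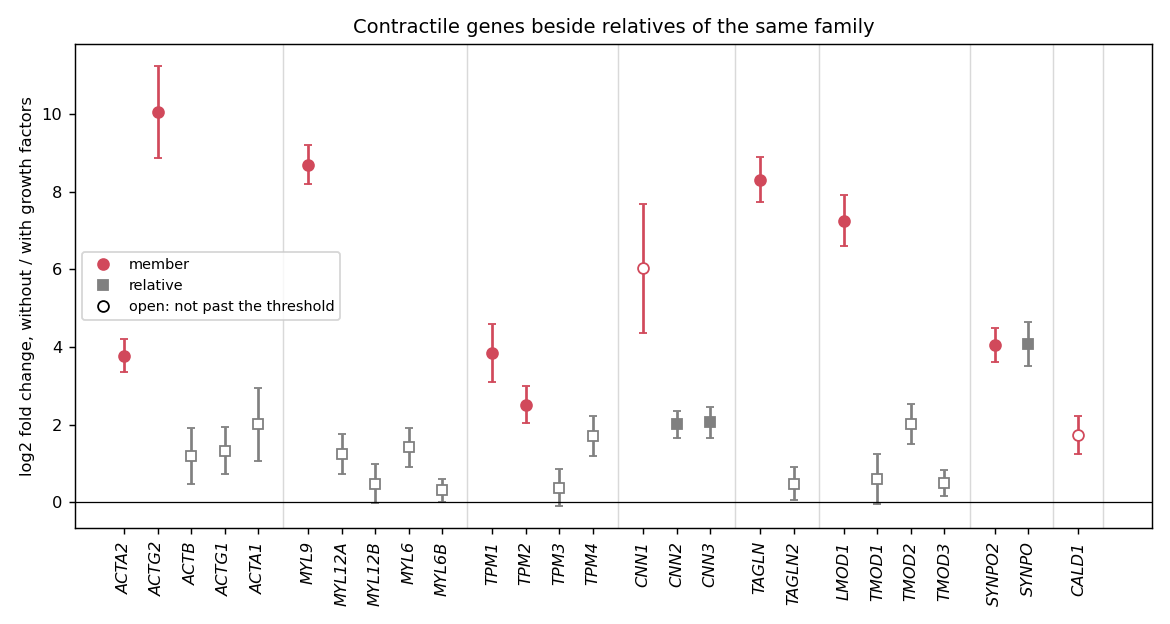
Log2 fold change without against with growth factors (limma on log2(normalized count + 1), bars are SE, n = 3 samples a group) for the 10 members (red circles) and 16 relatives (grey squares), by family. Filled symbols passed the threshold. Each member lies above its relatives except SYNPO2, which is level with SYNPO, and CALD1, which has no relative listed; the values of ACTG2, LMOD1 and CNN1 depend on the pseudocount.

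The ratio of a member to a relative was then taken within each sample, as log2 of (normalized count + 1) over (normalized count + 1), for 10 pairs. For ACTG2, LMOD1 and CNN1, with few or no control reads, this ratio depends on depth and on the pseudocount. The log2 ratio was higher in every depleted sample than in every control sample for 7 pairs, and the exact permutation test gave p = 0.1 for each, the smallest that 3 against 3 allows (adjusted over the 10 pairs, 0.143). TAGLN over TAGLN2 was at -5.35, -6.24 and -3.61 in control and at 2.06, 2.84 and 3.38 in depleted samples, a difference of 7.83. MYL9 over MYL12A was at -8.37, -8.69 and -7.04 in control and at -1.30, -0.34 and -0.07 in depleted samples, a difference of 7.46. For both, the control and depleted samples were far apart compared with the spread inside each group.

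ACTA2 over ACTB differed by 2.59, TPM1 over TPM3 by 3.47 and TPM2 over TPM4 by 0.80 on the log2 scale, with no overlap. ACTG2 over ACTG1 (8.73) and LMOD1 over TMOD3 (6.75) also did not overlap, but rest on members with at most 2 control reads, and with a pseudocount of 10 they were 5.45 and 4.11. The CNN1 ratios overlapped through depleted replicate 1 (to CNN2, -10.2 against -4.45 and -4.10 in the other two; difference 4.02, exact permutation p = 0.2, adjusted 0.222). With a pseudocount of 10 the CNN1 differences were 1.6 to CNN2 and 1.55 to CNN3, in place of 4.02 and 3.97. SYNPO2 over SYNPO was the exception, with control samples at -0.83, -2.85 and -3.67 around the depleted -2.61, -2.60 and -2.23. The difference of -0.03 had an exact permutation p of 1.

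Levels of different genes were compared per kilobase of the canonical transcript. The smooth muscle actins ACTA2 and ACTG2 together made up 0.299%, 0.307% and 0.974% of 6 actins in control samples and 2.17%, 4.55% and 4.33% in depleted samples (0.526% ± 0.387 against 3.68% ± 1.32, SD, n = 3 each; exact permutation p = 0.1). The share was higher in each depleted sample, yet ACTB and ACTG1 made up most of the actin RNA in every sample. ACTG2 per kilobase was 0.0525 of ACTA2 in depleted replicate 1 and 0.615 and 0.573 in replicates 2 and 3.

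TPM1 and TPM2 together made up 60.7%, 56.5% and 60.3% of the 4 tropomyosins per kilobase with growth factors and 76.7%, 83.7% and 85.5% without (59.2% ± 2.33 against 82.0% ± 4.63, SD, n = 3 each; exact permutation p = 0.1). The 2 genes did not contribute alike. The TPM1 share was 38.7%, 20.8% and 21.3% in control and 40.2%, 62.5% and 63.0% in depleted samples, while the TPM2 share was 21.9%, 35.7% and 39.0% in control and 36.6%, 21.2% and 22.5% in depleted samples. CNN1 reached 2.80% and 3.68% of the 3 calponins in depleted replicates 2 and 3, and 0.0453% in replicate 1. The per-kilobase scale rests on 1 transcript per gene, and other isoforms would change it.

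**Figure D4:**
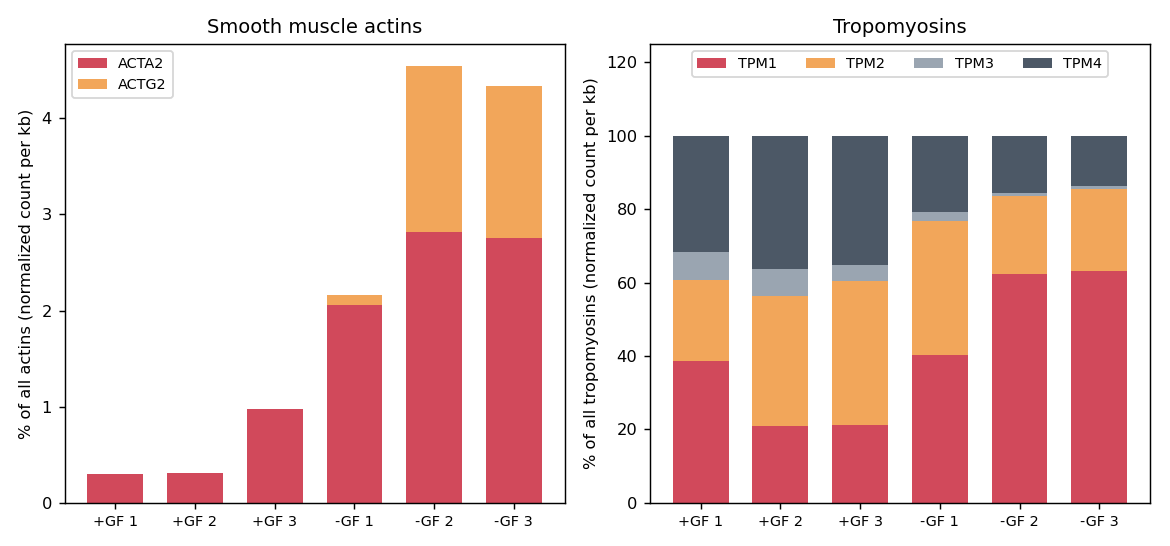
Shares of family members per kilobase of canonical transcript in each sample (+GF, with growth factors; -GF, without). Left, ACTA2 and ACTG2 as a percentage of 6 actins, at 0.299% to 0.974% with growth factors and 2.17% to 4.55% without. Right, the 4 tropomyosins, of which TPM1 and TPM2 make 56.5% to 60.7% with growth factors and 76.7% to 85.5% without.

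Other smooth muscle genes were taken from a second list. Of 28 genes, 22 had values and 19 were tested. Of these, 9 rose, 1 fell, and the median log2 fold change was 2.03, where 4.36% of all genes tested rose and 1.97% fell. MYLK, the myosin light chain kinase that phosphorylates MYL9, was at 38.9, 46.3 and 31.5 normalized counts in control samples and at 3757, 4207 and 4065 in depleted samples. The 3 depleted samples were nearly level, unlike those of MYL9, and MYLK rose by 6.67 ± 0.29 (SE; limma adjusted p = 1.02e-04). NEXN (an actin-binding Z-disc protein, 4.52), PDLIM7 (2.86), CSRP1 (2.40), FHL2 (2.25) and VCL (vinculin, 1.90) also rose. With 1 sample left out, NEXN passed in each limma fit. CSRP1 passed only without depleted replicate 1 (limma adjusted p = 0.00802, otherwise 0.0536 to 0.137). PDLIM7 (0.0877 and 0.0888) and VCL (0.0671 and 0.0677) missed the threshold without depleted replicate 2 or 3. FHL2 missed it without control replicate 1 (0.0504) or depleted replicate 2 (0.0542). The calcium-activated potassium channel was called in both subunits, with the alpha subunit KCNMA1 at 5.9 to 35.1 normalized counts in control and 463 to 1388 in depleted samples, and the beta subunit KCNMB1 at 0 to 1.97 and 64.1 to 729. FHL1 rose as well (5.66), and RYR2, a calcium release channel best known from heart muscle, fell by 3.15 on the log2 scale (limma adjusted p = 0.0108). FHL1 and KCNMB1 had control means under the minimum for the test (3.16 and 0.85 normalized counts) and passed it through the depleted samples. Without depleted replicate 2 this list had 6 calls in place of 10.

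MYH11, the smooth muscle myosin heavy chain and a defining marker of the mature cell, was low, at 1.25, 0.59 and 4.92 normalized counts in control (1, 1 and 5 reads) and 4.58, 13.8 and 31.3 in depleted samples (5, 21 and 14 reads). Its mean was under the minimum for the test, and depleted replicates 2 and 3 were above every control sample. SMTN, smoothelin, had a log2 difference of 0.17 (limma adjusted p = 0.878). DES, ITGA8, PLN, CASQ2, CACNA1C and SGCA were not found among the genes with values, so their level is not known here.

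**Figure D5:**
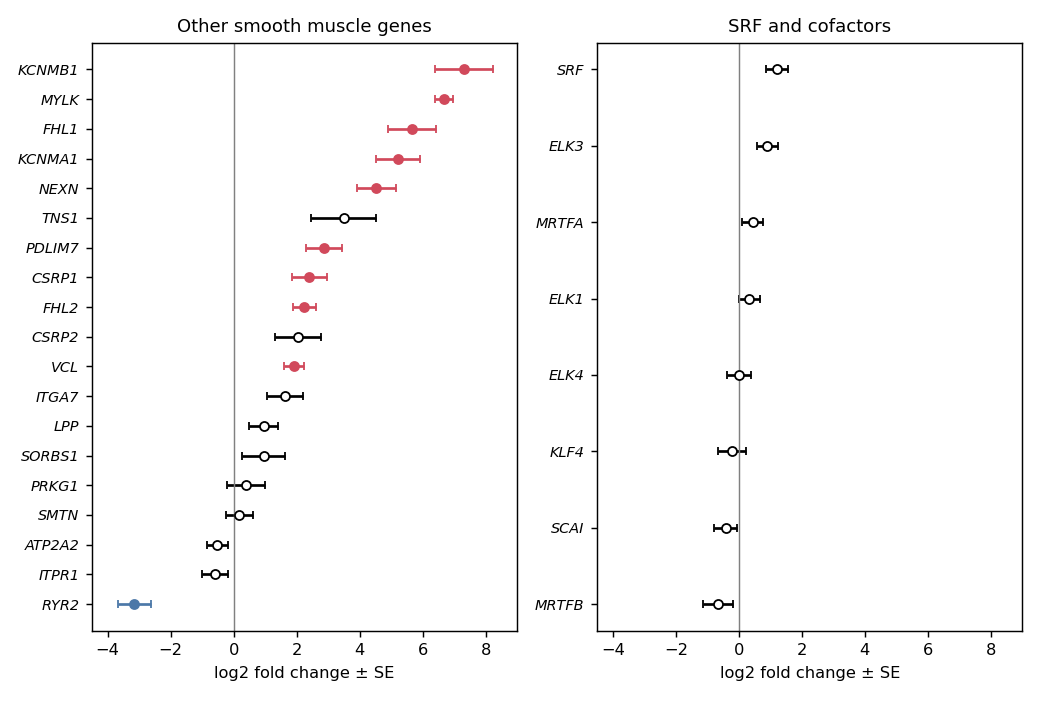
Log2 fold change without against with growth factors (± SE, n = 3 samples a group) for other smooth muscle genes and for SRF and its cofactors. Filled red points were called higher, the filled blue point (RYR2) lower, and open points did not pass. The calls are 10 of 19 in the left panel and 0 of 8 in the right, and KCNMB1 has so few control reads that its value depends on the pseudocount.

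Of SRF and its cofactors, 8 of 10 were tested and limma called 0 higher and 0 lower (2 higher at an unadjusted p under 0.05, edgeR 0, DESeq2 1), with a median log2 fold change of 0.17. Limma called 4.36% of all genes tested higher and 1.97% lower, so 0 calls among 8 genes are near that share. SRF itself was at 505, 674 and 525 normalized counts with growth factors and at 841, 1412 and 1836 without. Its groups did not overlap, and the log2 difference of 1.20 ± 0.34 (SE) had a limma adjusted p of 0.0819. Without depleted replicate 1 it passed, as the 1 call of this list. MRTFA (0.45) and MRTFB (-0.66), the cofactors that actin monomers hold in check, did not pass. MYOCD, myocardin, was not found among the genes with values, so its level is not known here.

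CArG boxes were also looked for in the promoters of the kinase and of broadly expressed relatives, shown for comparison with the smooth muscle actins and chosen after their values were seen. One full box, in capitals, stood in each of these RefSeq promoters.
MYLK, chr3:123620618-123620657, minus strand: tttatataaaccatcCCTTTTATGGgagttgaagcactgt
CNN2, chr19:1026504-1026543, plus strand: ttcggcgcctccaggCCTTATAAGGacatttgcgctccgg
ACTG1, chr17:81512869-81512908, minus strand: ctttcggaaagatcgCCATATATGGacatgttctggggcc
The boxes begin 94 bases before the start in MYLK, 89 in CNN2 and 94 in ACTG1. Over the lists of relatives, other smooth muscle genes and SRF with cofactors, 40 tested genes had a promoter in the table. A full box was in 10 of them, of which 4 were called higher by limma (CNN2, MYLK, FHL1 and FHL2) and 6 were not called (ACTG1, ACTA1, TPM4, SMTN, LPP and SRF), and 8 of the 30 without one were called higher. The windows of LMOD1, TPM1, TPM2 and CNN1 held neither a full box nor one with 1 letter off, which says only that these letters are not in these 300 bases.

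Markers of other cell types were counted beside the members, and their part in the result was not tested. Limma called 4.36% of all genes tested higher and 1.97% lower, the shares to set beside each count below. With so few genes tested in a list, 0 or 1 call says little beside these shares. Of 11 mammary epithelial markers limma called 0 higher (3 at an unadjusted p under 0.05, edgeR 0, DESeq2 1) and 1 lower, TP63 (log2 fold change -4.18, limma adjusted p = 0.0270), and their summed level was 68864 to 113426 normalized counts in control and 59005 to 199569 in depleted samples. Without KRT17, which supplied 123480 in depleted replicate 3, the sums were 62983 to 103723 in control and 39769 to 76089 in depleted samples. Of 9 myoepithelial markers 7 were tested. OXTR, the oxytocin receptor (3.74, limma adjusted p = 0.0197), ACTA2 and MYLK rose and TP63 fell, and the sum was 7829 to 16960 in control and 26753 to 134604 in depleted samples, of which most was KRT17. OXTR missed the limma threshold without control replicate 1 (adjusted p = 0.0697) or 2 (0.0618), or depleted replicate 2 (0.0671). TP63 missed it without control replicate 1 (limma adjusted p = 0.0524) or 2 (0.0601), or depleted replicate 3 (0.0664). In the myoepithelial list ACTA2 and CNN1 are members themselves. OXTR was highest in depleted replicate 1 (742, 174 and 96.2 normalized counts), the reverse of most contractile genes.

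Of 10 markers of vascular smooth muscle and pericytes 5 were tested and limma called 2 higher, RGS5 (adjusted p = 0.0494) and PDGFRB (adjusted p = 0.00339), with sums of 1325 to 2984 in control and 6736 to 10685 in depleted samples. PDGFRB had a control mean under the minimum for the test (6.95 normalized counts) and passed it through the depleted samples. RGS5 missed the threshold with a pseudocount of 10 (limma adjusted p = 0.0641) and in all fits that left out 1 sample (0.0577 to 0.130) but that without depleted replicate 1 (0.0149), and DESeq2 gave no adjusted p for either gene. Both were far higher in depleted replicate 1: RGS5 was at 6491, 188 and 219 normalized counts and PDGFRB at 3322, 349 and 447 in depleted replicates 1, 2 and 3. The depleted sample with most RNA of these 2 pericyte genes was thus the one with least ACTG2 and CNN1. The other markers tested in this list went the other way and were lowest in depleted replicate 1. In depleted replicates 1, 2 and 3, MCAM was at 828, 6027 and 6945 normalized counts. NOTCH3 was at 14.6, 83.9 and 51.4, and CSPG4 at 23.8, 74.1 and 58.1. NOTCH3 (-3.04) and CSPG4 (-2.14), also pericyte markers, did not pass with limma or edgeR, but DESeq2 called both lower (adjusted p = 6.03e-04 and 0.00279). The defining MYH11 was under the minimum for the test.

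Of 12 striated muscle markers 3 were tested and 1 rose, NKX2-5 (0 to 11.8 normalized counts in control and 39.4 to 203 in depleted samples), with sums of 3.8 to 228 and 93.4 to 302. NKX2-5 was not called by edgeR. With limma it missed the threshold without control replicate 1 (adjusted p = 0.0781) or 2 (0.0732), or depleted replicate 2 (0.158) or 3 (0.165). For endothelium 2 of 5 markers were tested and CDH5 rose (4.10 to 8.77 and 25.6 to 119 normalized counts), with sums of 100 to 1009 and 240 to 1610. With limma CDH5 missed the threshold without control replicate 1 (adjusted p = 0.0623) or 2 (0.0842), or depleted replicate 2 (0.146) or 3 (0.143). Both NKX2-5 and CDH5 had control means under the minimum, and passed it through the depleted samples. For blood 1 of 5 was tested and none passed with limma (0 at an unadjusted p under 0.05, edgeR 0, DESeq2 0), with sums of 273 to 884 and 86.5 to 656.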

How the data were processed

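RNA-Seq was available for 6 MCF10A samples, grouped by their labels. The authors made stranded single-end libraries of 100 bases, aligned reads by TopHat2 to hg38, obtained counts per Gencode v22 gene by HTSeq 0.6 and scaled these by DESeq2 1.8.1 size factors (versions from the submitters' processing notes, which also list cutadapt 1.6 and R 3.2.0). The deposited values are thus a normalized count signal per gene; 100% were whole reads within 0.01 of a read, which recovered the reads. Gencode v44 on hg38 named 18913 of the 19198 genes and 285 were not named.

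Here, log2(normalized count + 1) of 16988 genes (mean of 10 or more) was fitted with limma 3.58.1 (eBayes with trend) in R 4.3.3, with Benjamini-Hochberg adjustment over all genes tested. The procedure was tested on simulated data. A gene was called at an adjusted p under 0.05 with at least a 2-fold change. Alternatives were edgeR 4.0.16 (quasi-likelihood) and DESeq2 1.42.0 on recovered reads, pseudocounts of 0.5 and 10, other filters, scalings and corrections, a replicate block, and leaving out each sample. Ratios and shares were compared by an exact two-sided permutation test. Overlaps between genes count identical 100-base windows of Gencode v44 transcripts.

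The members and lists were chosen with earlier results of these data known. The genes named are all members, the called genes of each list, relatives in a pair and defining markers; further genes that did not pass (among them SRF, MRTFA, MRTFB and SMTN), genes with values under the minimum and genes overlapping a member were named after their values were seen. No protein sequence is shown, and 1 further gene list is not reported here.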

Additional observations from a re-analysis of the deposited data

How the results depend on the processing

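For the 10 members, 180 fits (10 genes under 18 alternatives) gave 168 calls on the same side of the threshold and the same direction as reported; 6 lost the call (TPM1 and TPM2, 3 each, all with a sample left out), 6 gained it (CALD1 and CNN1), and 0 reversed. The count of members called was 8, and 6 to 10 with each sample left out. Relatives called, 3 as reported, were 6 with DESeq2 and 1 to 4 with each sample left out. Other smooth muscle genes called, 10 as reported, were 6 to 11 with each sample left out. SRF and cofactors called, 0 as reported, were 1 with DESeq2 and 0 to 1 with each sample left out. All genes called, 1076 as reported, were 2112 with DESeq2 (1287 higher, 825 lower) and 453 (without depleted replicate 2) to 2474 (without control replicate 3) with each sample left out. Apart from fewer samples in the fits with one left out, the cause of these changes was not tested.

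The log2 ratio of SYNPO2 to SYNPO, -0.03 as reported, ran from -0.64 to 0.78 with each sample left out and was positive without control replicate 1 (0.78), depleted replicate 1 (0.04) or depleted replicate 2 (0.03). The other 9 pairs kept their sign in every alternative run, though the ratios of ACTG2, LMOD1 and CNN1 shrank with a pseudocount of 10.

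Nothing in the labels ties a shared replicate number to a shared batch. The residuals of same-numbered samples correlated at -0.10, -0.27 and -0.32, so the numbers were not taken to pair them. With the replicate block 9 members were called, CNN1 being added (limma adjusted p = 0.0145), and 967 of all genes.

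With 3 samples a group, an exact permutation test cannot go below 0.1. Depth limits ACTG2, LMOD1 and CNN1, with 0, 2 and 1 reads over the 3 control samples. The floor of 3 reads equals between 1.76 and 6.71 normalized counts in single samples.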
